A study of Homo sapiens with 2 samples.

Results

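Promoters poor in CpG dinucleotides that lay in accessible chromatin were described in H1 cells, an established line of human embryonic stem cells. A region of the deposited peak list was taken as a member when a summit lay within 500 bp of the annotated 5′ end of an autosomal protein-coding gene and the observed/expected CpG ratio of the 1 kb around that end was below 0.35. The ratio divides the number of CpG pairs by the number that the C and G content alone would give. This rule found 922 regions of the 160327 in the list, or of the 155881 on autosomes, at the 5′ ends of 903 genes. The ratio and the presence of a region chose the members and are not results about them.

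The series holds 2 samples of 1 group, rep1 and rep2, both of H1 cells, and names no treatment or genotype that differs between them. Whether they come from separate cultures is not said. The assay was ATAC-seq, a method whose transposase cuts open DNA and tags it for sequencing. The cells had been cryopreserved, and after thawing were exposed to DNase I against DNA from dead cells, cleaned up on Ficoll and processed by the Omni-ATAC protocol. Both samples share 1 peak list of the GRCh38 (hg38) genome, which gives no values per sample, so no replicate spread exists for any value here. All values therefore describe 1 list, and the intervals given are 95% exact (Clopper-Pearson) binomial intervals for shares and order-statistic intervals for medians, which cover counting error only. The list was checked against marker genes: all 10 of the 10 embryonic stem cell markers had a region at the 5′ end, against 5 of 24 markers of other cell types. Of all 19111 autosomal protein-coding genes, 70.2% had one. At any annotated start, 9 of the 24 had a region. The share of genes with a region rises with the CpG ratio, and the 2 marker sets were not matched for it.

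Most human promoters are CpG islands, which are kept free of DNA methylation and are open in nearly every cell type. CpG-poor promoters are usually methylated where they are silent, and they serve genes of specialised tissues such as liver enzymes, matrix proteases, hormones and immune receptors. Their known elements are the TATA box, bound by TBP shortly upstream of the start, and sites for cell-type-restricted or signal-activated factors such as AP-1 or POU proteins, in contrast to the GC box, ETS and NRF1 sites of CpG islands.

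The sequences that follow are the 120 bases directly upstream of the 5′ end of some members, 5′ to 3′ on the gene's strand in hg38, and show the elements that the results below count. The first 4 are the members of highest fold with a TATAAA string (capitals) 40 to 20 bp upstream and a summit within 100 bp of the canonical transcript's start. They are MMP10 (chr11:102780629-102780748, minus strand), VIP (chr6:152750677-152750796, plus), VCAM1 (chr1:100719622-100719741, plus) and GSTA2 (chr6:52763476-52763595, minus).
MMP10: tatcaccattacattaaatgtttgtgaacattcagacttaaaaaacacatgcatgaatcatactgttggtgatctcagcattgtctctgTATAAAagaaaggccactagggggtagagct
VIP: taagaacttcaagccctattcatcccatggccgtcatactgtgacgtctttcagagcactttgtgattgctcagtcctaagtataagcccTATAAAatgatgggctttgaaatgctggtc
VCAM1: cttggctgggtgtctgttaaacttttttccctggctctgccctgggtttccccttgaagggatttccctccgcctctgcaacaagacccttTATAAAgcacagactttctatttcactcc
GSTA2: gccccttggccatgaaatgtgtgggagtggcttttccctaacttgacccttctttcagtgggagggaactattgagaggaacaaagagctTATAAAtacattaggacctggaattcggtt

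In each of them the string begins between 31 and 29 bases upstream of the annotated start. MMP10 encodes a stromelysin that degrades matrix proteins, VIP a neuropeptide, VCAM1 an adhesion molecule of activated endothelium and GSTA2 a glutathione transferase of liver. The next 3 carry, in capitals, GTTGCCA or its reverse complement TGGCAAC, which is one arm of the X box bound by RFX factors of cilia genes. CFAP126 (chr1:161367877-161367996, minus) encodes a protein of the axoneme. WDR49 (chr3:167653984-167654103, minus) and LRRC52 (chr1:165543880-165543999, plus) were chosen after their values were seen. The summit of WDR49 lies 35 bp inside the transcript. Its marked string is therefore over 50 bp from the summit and is not a match that the counts at summits below include.
CFAP126: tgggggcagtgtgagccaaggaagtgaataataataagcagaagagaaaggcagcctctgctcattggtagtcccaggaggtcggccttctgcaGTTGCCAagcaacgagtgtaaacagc
WDR49: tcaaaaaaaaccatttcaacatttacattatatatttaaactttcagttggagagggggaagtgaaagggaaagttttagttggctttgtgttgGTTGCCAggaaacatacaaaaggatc
LRRC52: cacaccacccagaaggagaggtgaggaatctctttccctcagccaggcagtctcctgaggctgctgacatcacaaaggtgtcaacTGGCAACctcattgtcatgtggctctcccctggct

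The last pair shows an AP-1 string TGANTCA and the POU octamer ATGCAAAT or its reverse complement ATTTGCAT in capitals. IL1A (chr2:112784494-112784613, minus) encodes interleukin 1 alpha. SLC7A11 (chr4:138242350-138242469, minus) encodes the cystine transporter.
IL1A: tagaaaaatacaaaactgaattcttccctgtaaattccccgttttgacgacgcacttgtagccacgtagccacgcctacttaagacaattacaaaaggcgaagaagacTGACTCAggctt
SLC7A11: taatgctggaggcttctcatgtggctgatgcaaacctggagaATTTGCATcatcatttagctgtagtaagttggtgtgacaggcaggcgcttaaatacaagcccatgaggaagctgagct

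CpG-poor 5′ ends were mostly closed in these cells. Of the 5043 CpG-poor genes, 903 (17.9%, interval 16.9% to 19.0%) had a region, whereas 70.2% of all 19111 autosomal protein-coding genes did. The share was 59.3% for genes of intermediate ratio (0.35 to 0.60) and 95.3% for CpG-rich genes (0.60 or more). Below the threshold it still varied with the ratio: 81 of 814 genes (9.95%, 7.98% to 12.2%) were open at ratios of 0.10 to 0.15, and 173 of 668 (25.9%, 22.6% to 29.4%) at 0.30 to 0.35. The intervals of those shares do not overlap. The next class above the threshold, 0.35 to 0.40, was open in 33.8% (29.6% to 38.2%). ZNF491 and TAGLN, with ratios of 0.349, fell just inside it, at folds over background of 4.32 and 5.35. SCARA5 and LINS1, with ratios a little over 0.35, fell just outside, at 11.0 and 4.72.

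**Figure D1:**
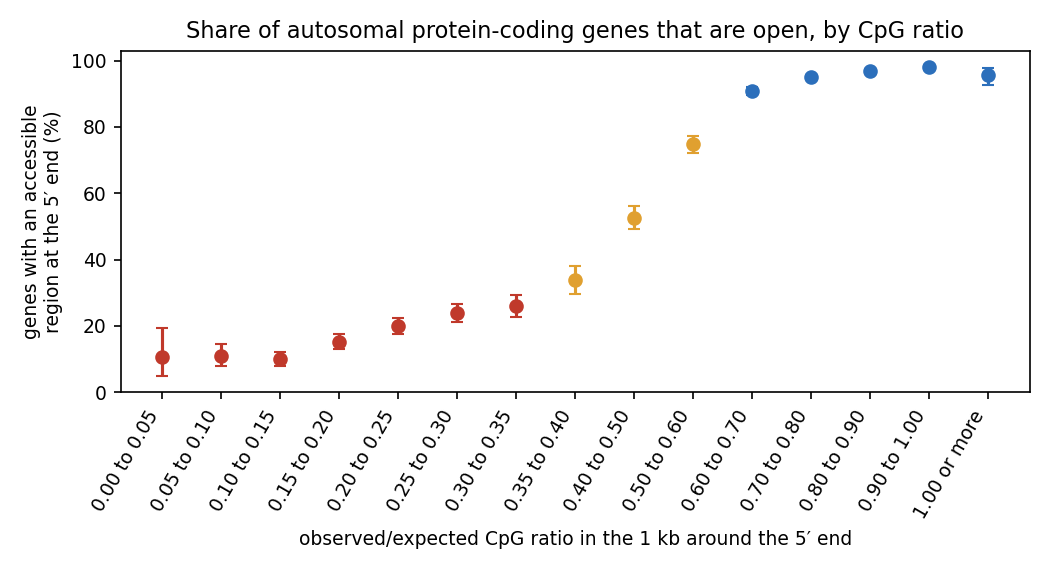
Share of autosomal protein-coding genes with an accessible region within 500 bp of the 5′ end (y axis, percent) by observed/expected CpG ratio (x axis). Points are shares, bars 95% exact binomial intervals, red CpG-poor, yellow intermediate and blue CpG-rich classes; the share climbs from about the 10.7% of the lowest class through 25.9% at 0.30 to 0.35 to over 90% in the blue classes.

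The open CpG-poor promoters had weaker and narrower regions than CpG-rich ones, but some were among the strongest promoters of the list. The fold is the authors' enrichment of a summit over a background, taken here at the strongest summit within 500 bp. Its median was 5.30 in members (5.08 to 5.57), 6.87 at intermediate and 9.35 at CpG-rich promoters (9.25 to 9.45), so that the members' median was 0.567 times the CpG-rich one. Distal regions, more than 1000 bp from any annotated transcript start, had a median of 5.15. The members' folds ran from 2.01 to 25.5, with 10% below 2.94 and 10% above 12.4. The median of CpG-rich promoters was passed by 192 members (20.8%). A fold over 20 was found in 12 members (1.30%), against 70 of the 9840 CpG-rich promoters (0.711%). Intermediate promoters had the same share as members, with 19 of 1452 (1.31%). The 3 strongest members lay above the highest CpG-rich promoter, at 24.4. Within the members, the Spearman rho of ratio and fold was 0.02 (922 regions that come from the same libraries).

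The 10 strongest members serve genes of different tissues. FMO4, a flavin monooxygenase that oxidises drugs, led with a fold of 25.5 at a summit 111 bp upstream of its 5′ end. CSRNP3, a cysteine- and serine-rich nuclear protein, followed at 24.9 and 15 bp upstream, in a region only 328 bp wide. MMP10 reached 24.6 with the summit 21 bp inside the transcript. VIP reached 23.6, 74 bp inside. CALCRL, the receptor subunit for adrenomedullin and CGRP, had 21.2 at 99 bp inside, and coagulation factor V (F5) 20.5 at slightly over 100 bp inside. ZNF474 had 21.0 and a summit 9 bp upstream. The list was completed by PXDNL, a peroxidasin relative, at 21.6, by ATOSA at 22.0 and by the urea transporter SLC14A2 at 20.6. For ATOSA and SLC14A2 the outermost annotated start is not the canonical one, which lies 30429 and 402481 bp away, so their regions sit at an alternative start.

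**Figure D2:**
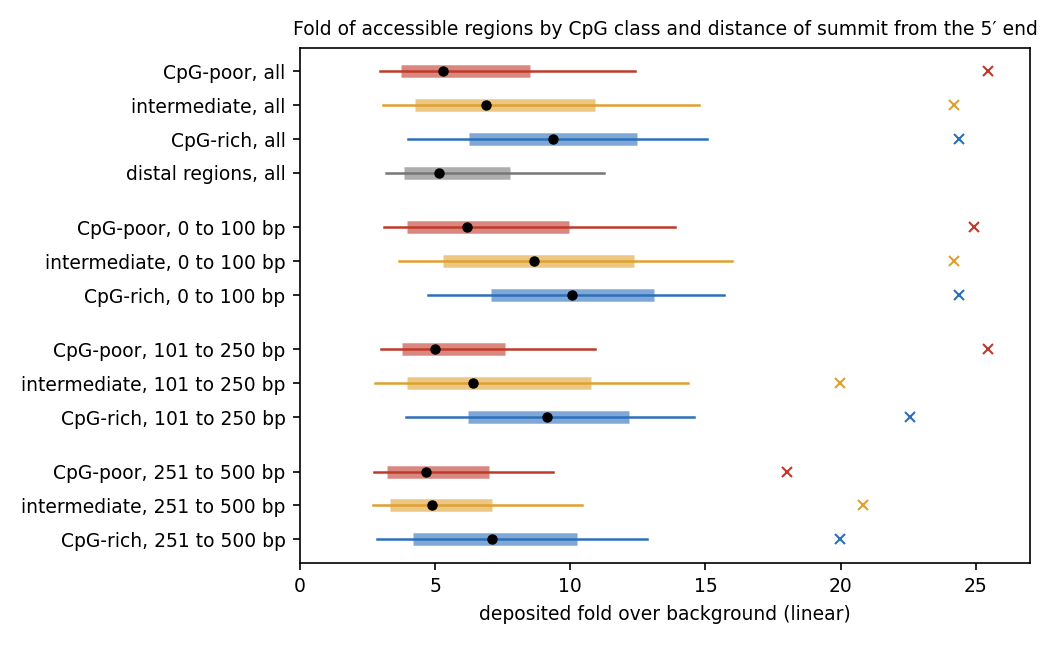
Deposited fold over background (x axis, linear) of accessible regions by CpG class, for all regions and by distance of the summit from the 5′ end. Black points are medians, thick bars the middle 50%, thin lines the 10th to 90th percentile and crosses the highest value (not drawn for distal regions); CpG-poor medians fall from 6.16 within 100 bp to 4.67 beyond 250 bp and stay below the CpG-rich ones at each distance.

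Members were also simpler in shape. Their median width was 560.5 bp (541 to 589), against 913 bp at intermediate, 1150 bp at CpG-rich promoters and 418 bp at distal regions. A single summit was found in 56.5% of members, against 13.3% of CpG-rich promoters and 75.7% of distal regions. The exceptions included STC1, which encodes the hormone stanniocalcin, and TP53TG5, each with 7 summits. The widest members lay at AMOTL2 (2529 bp), CYRIB (2082 bp), PEX5 (2025 bp), NPNT (1887 bp) and STIM1 (1880 bp). Of these 5, only PEX5 had its summit close to the 5′ end, at 8 bp. The summits of AMOTL2, CYRIB, NPNT and STIM1 lay over 250 bp and up to 470 bp inside the gene. All 5 have a CpG-rich canonical start (ratios 0.622 to 0.973) 696 to 1137 bp away. Wider members tended to have higher folds (Spearman rho 0.38 over the 922 regions, which share their libraries).

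The strongest qualifying summit lay within 100 bp of the 5′ end in 466 members (50.5%, 47.3% to 53.8%), a lower share than at CpG-rich promoters (59.0%). It lay over 250 bp away in 257 members (27.9%, 25.0% to 30.9%), against 17.6% at CpG-rich promoters. The commonest place was the 100 bp upstream of the 5′ end, with 330 members (35.8%), while the 100 bp inside held 129 (14.0%). Summits near the start were stronger: the median fold was 6.16 (5.57 to 6.64) within 100 bp, 5.01 between 100 and 250 bp and 4.67 (4.18 to 5.08) beyond. At the distance limit, SPATA20 (498 bp, fold 2.14) and HDLBP (499 bp, 2.07) were just inside, and CALD1 (505 bp, 5.59) and CCM2L (506 bp, 4.70) just outside.

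**Figure D3:**
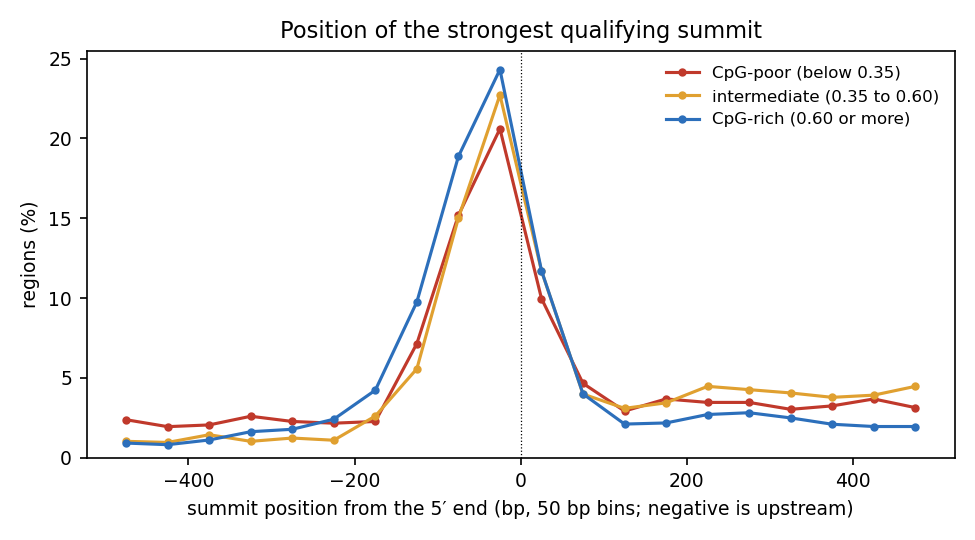
Position of the strongest qualifying summit relative to the 5′ end (x axis, bp in 50 bp bins, negative upstream) as percent of regions (y axis) for CpG-poor, intermediate and CpG-rich promoters. All 3 classes peak just upstream of the start, and the CpG-poor line is lower at the peak and higher beyond 250 bp upstream than the CpG-rich line.

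Most members, 899 of 922 (97.5%), lay at the 5′ end of 1 CpG-poor gene, and 23 lay at 2 or more. Leaving out those CpG-poor genes, no transcript of another gene started within 500 bp of the summit in 829 members (89.9%). A lncRNA did in 47 and another protein-coding gene in 42. These shares were not counted for the other classes. A gene of higher ratio shared 15 members, so that a CpG-richer neighbour was within 500 bp in 1.63% of them. The summit was intergenic in 360 members, in an intron in 253, in an untranslated exon in 217, in another non-coding exon in 53 and in a coding exon in 39. The annotated 5′ end was within 100 bp of the canonical transcript's start for 536 of the 903 open genes (59.4%), and over 500 bp from it for 286 (31.7%). In 153 of those 286 the canonical start itself was CpG-rich. Among closed genes the share with a far canonical start was close (32.2%). Members with the canonical start within 100 bp had a median fold of 5.79 (5.36 to 6.28), and those with it over 500 bp away 4.94 (4.47 to 5.39).

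Of the 4140 closed CpG-poor genes, 2750 (66.4%) had a summit within 10 kb, and the median distance to the nearest summit was 5754 bp. No such distance was measured for other positions of the genome, so closeness beyond the density of the list was not tested. Some part of a region lay within 500 bp of 164 closed genes, and 1226 (29.6%) were open at another annotated start. Counting every annotated start, 2129 of the 5043 genes (42.2%) were open. Within 50 kb of the 5′ end, open genes had a median of 7 other regions and closed genes 6. No other region was found there for 0.332% of open and 6.76% of closed genes. Some genes had the 5′ end of another CpG-poor gene more than 1000 bp and at most 50 kb away. The nearest such neighbour was open beside 93 of 333 open genes (27.9%, 23.2% to 33.1%) and beside 252 of 2067 closed genes (12.2%, 10.8% to 13.7%). Genes of higher ratio may lie between them. A pair of genes can count from both sides and clustered families recur, so these genes are not independent and the intervals are too narrow.

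Pluripotency genes supplied 6 members. Of the 12 CpG-poor genes in a list of core pluripotency genes, 6 were open at the annotated 5′ end (50.0%, 21.1% to 78.9%), and the interval lies above the 17.9% of all CpG-poor genes. EPCAM, an epithelial adhesion molecule and stem cell surface marker, was strongest, with a fold of 17.4 at 26 bp upstream. Its region lies at an alternative start 24153 bp from the canonical one, which is CpG-rich (ratio 0.901). IDO1, a tryptophan-degrading enzyme, and NTS, the precursor of neurotensin, both had a fold of 10.9. USP44, a deubiquitinase of histone H2B, had 7.21. TDGF1, the NODAL co-receptor, had 7.09 and ZSCAN10, a zinc finger factor, 4.50. The regions of IDO1 and TDGF1 also lie at alternative starts, 11616 and 3254 bp from the canonical ones, so that 3 of the 6 do. The 6 others were closed there. Among them, LEFTY2, NODAL, THY1, KLF5 and POLR3G had the nearest summit 1477, 5375, 1387, 3918 and 1836 bp away. All 12 were open at some annotated start (73.5% to 100%, with 42.2% of all CpG-poor genes), and for KLF5 and POLR3G the canonical start is CpG-rich (ratios 0.957 and 0.763).

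In the lists for liver, muscle, blood and immune cells, epidermis, germ line, naive state, embryonic genome activation and trophoblast, each interval included the 17.9% of all CpG-poor genes. The liver list had 7 of 34 CpG-poor genes open (20.6%, 8.70% to 37.9%), led by the alcohol dehydrogenase ADH1B (fold 11.5), complement C3 (9.40) and UGT2B7 (6.28). Muscle genes had 4 of 23, led by the myosin MYH2 (11.2) and titin, TTN (5.05). Blood and immune genes had 3 of 34, CD4 (4.10), CSF1R (3.40) and CD68 (3.19), all below the members' median of 5.30. The epidermal list had 2 of 25, DSC1 (8.59) and KRT16 (4.05). The germ line list had 2 of 16, the RNA-binding protein DAZL (11.2) and the testis kinase PGK2 (10.2). The naive-state list had 2 of 8, ALPG (4.04) and SUSD2 (2.79), and the embryonic genome activation list 0 of 15. Trophoblast genes had 6 of 25, led by the placental growth hormone GH2 (8.14), CSH1 (6.39) and CSH2 (5.95), whose regions lie 453 to 476 bp upstream. Several of these regions sit at alternative starts far from the canonical one: C3 9912 bp, UGT2B7 45111 bp, TTN 23379 bp, CD4 2670 bp, CSF1R 26818 bp, KRT16 3132 bp and DAZL 64883 bp away. The canonical start of DAZL is CpG-rich (ratio 0.710). CSH1 and CSH2 have near-identical copies in the genome, so their reads may be shared among copies.

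Matrix genes had shares above that of all CpG-poor genes. The extracellular matrix and fibroblast list had 7 of 15 open (46.7%, 21.3% to 73.4%), with MMP10 at 24.6, the collagen-binding SPARC at 12.6 and the growth factor receptor PDGFRB at 6.88. The overlapping family of matrix metalloproteinases and ADAM proteases had 8 of 21 (38.1%, 18.1% to 61.6%), with ADAM28 at 15.2 and MMP26 at 11.5. Both intervals lie above 17.9%, the second narrowly. Counting any annotated start, the matrix list had 13 of 15 open (86.7%, 59.5% to 98.3%), and the protease family 11 of 21 (52.4%, 29.8% to 74.3%), an interval that includes the 42.2% of all CpG-poor genes. Aldo-keto reductases, alcohol and aldehyde dehydrogenases had 7 of 21, led by AKR1C1 (18.2). Mucins had 6 of 16, potassium channels 7 of 25, dynein, cilia and flagella genes 6 of 22 and solute carriers 28 of 121, led by SLC14A2 and SLC7A11 (15.3). Their intervals include 17.9%.

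Large clustered families were almost entirely closed. Olfactory receptors had 11 of 395 open (2.78%, 1.40% to 4.93%), keratin-associated proteins 0 of 86 (up to 4.199%), late cornified envelope and SPRR proteins 0 of 29 (up to 11.9%), leukocyte Ig-like receptors and SIGLEC genes 0 of 29 and defensins 1 of 46. The strongest olfactory receptor was OR51D1 (18.02, summit 394 bp upstream), ahead of OR5A2 (10.7) and OR14A16 (10.7). DEFB1, an epithelial antimicrobial peptide, was the open defensin (2.88). These families sit in clusters, so their members are not independent of each other.

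**Figure D4:**
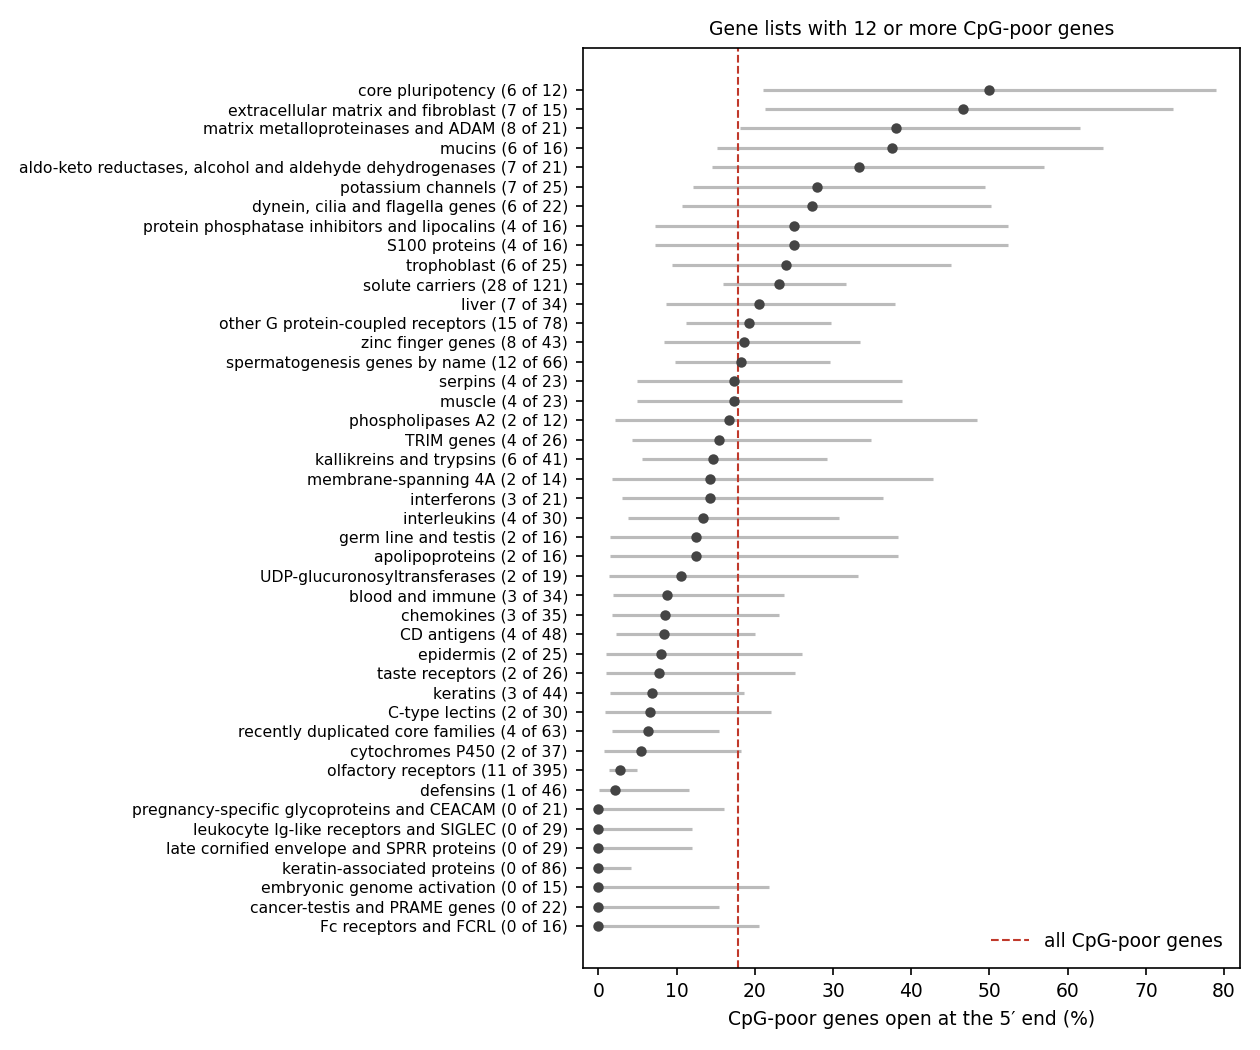
Percent of CpG-poor genes open at the 5′ end (x axis) in each gene list or family with 12 or more CpG-poor genes, with counts in the labels and 95% exact binomial intervals. The dashed line is the 17.9% of all CpG-poor genes; core pluripotency and extracellular matrix genes lie to the right of it and olfactory receptors and keratin-associated proteins far to the left.

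The TATA box, counted as TATAAA on the gene's strand 40 to 20 bp upstream of the 5′ end, was rare in open CpG-poor genes. It was present in 35 of 903 (3.88%, 2.71% to 5.35%), against 286 of 4140 closed ones (6.91%, 6.15% to 7.72%), 1.40% of open CpG-rich genes and 2.89% of all genes. The string written backwards was found at 0.332% of open genes. Among genes with the canonical start within 100 bp, 31 of 536 open (5.78%, 3.96% to 8.11%) and 265 of 2636 closed genes (10.1%, 8.93% to 11.3%) had it. Among those with a summit within 100 bp of a canonical start, MMP10, VIP, VCAM1 (17.2) and GSTA2 (15.4), printed above, were the strongest, followed by MMP26 (11.5), SLCO1C1 (7.87), the estrogen sulfotransferase SULT1E1 (7.77), SELENBP1 (7.56), OR51E2 (6.92) and the matrilysin MMP7 (6.37). The GC box GGGCGG, on either strand in the 120 bp upstream, showed the opposite order, with 14.1% of open, 6.43% of closed CpG-poor and 58.5% of open CpG-rich genes. Its backward string GGCGGG was as frequent (14.1%, 6.45% and 57.5%). CCAAT 120 to 40 bp upstream differed less, at 15.5% of open and 16.0% of closed genes.

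Motif strings were then counted on both strands in the 50 bp to each side of the summit, in members, in windows 500 bp to either side, in CpG-rich promoters and in distal regions. The GC box, ETS and NRF1 strings of CpG islands were less frequent in members than at CpG-rich summits. The GC box was in 125 members (13.6%, with 10.3% over all autosomal regions), against 54.0% of CpG-rich summits, 4.77% of distal summits and 4.66% of the flanks. Its backward string was as frequent. The ETS string CCGGAAG was in 5 members (0.542%, with 1.31% over all regions), against 9.11% of CpG-rich summits. The NRF1 string was in 0 (up to 0.399%, with 0.522% over all regions), against 5.46%. The YY1 string AANATGGC was in 4 (0.434%, with 1.25% over all regions). The first 3 of these strings contain CpG, so the rule on the ratio bears on them. CCAAT, bound by NFY, holds no CpG and was in 157 members (17.0%, 14.7% to 19.6%, with 13.6% over all regions), between flanks (13.2%) and CpG-rich summits (23.3%). Backwards, it was in 9.11%.

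The strings of TEAD, AP-1 and ZIC factors had shares in members near those of all regions and above those of flanks and CpG-rich summits. The TEAD string GGAATG was in 94 members (10.2%, 8.32% to 12.3%, with 11% over all regions), against 5.59% of flanks, 3.19% of CpG-rich and 12.1% of distal summits. The AP-1 string TGANTCA was in 46 (4.99%, 3.68% to 6.60%, with 4.52% over all regions), against 2.06% of flanks, 0.945% of CpG-rich and 4.96% of distal summits. The ZIC string CAGCAGG was in 86 (9.33%, with 8.92% over all regions), against 3.96% of flanks, 3.15% of CpG-rich and 9.54% of distal summits. The E box CAGCTG was in 113 (12.3%, 10.2% to 14.5%, with 8.61% over all regions), against 5.69% of flanks, 5.39% of CpG-rich and 8.83% of distal summits (8.67% to 8.99%). Strings of pluripotency factors were less common than at distal summits. The octamer ATGCAAAT was in 12 members (1.30%, 0.674% to 2.26%, with 2.28% over all regions), against 2.53% of distal and 0.60% of CpG-rich summits. Those 12 include USP44 and IDO1 of the pluripotency list, SLC7A11, which is printed above, and, named after their values were seen, HLA-DRA, a chain of an MHC class II receptor (10.3), and APELA, a peptide hormone of embryonic stem cells (8.12). The SOX string ACAATG was in 39 (4.23%, 3.02% to 5.74%, with 6.91% over all regions), against 7.70% of distal summits.

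Of the 33 strings counted, the X box arm GTTGCCA and the E box CAGCTG were the only ones more frequent in members than in flanks, CpG-rich and distal summits alike, with no overlap of intervals, which does not hold for the arm against intermediate promoters. The X box arm was in 34 members (3.69%, 2.57% to 5.12%, with 2.04% over all regions), against 2.06% of distal (1.98% to 2.14%), 1.43% of CpG-rich (1.21% to 1.69%) and 0.868% of flank windows (0.497% to 1.41%). Its share at intermediate promoters was 2.27% (1.57% to 3.18%), an interval that overlaps the members' one. The E box was in 8.61% of intermediate promoters (7.22% to 10.2%), just below the members' interval. The X box arm was in 25 of 466 members with a summit within 100 bp (5.36%) and in 3 of 257 with one beyond 250 bp (1.17%). Members with it had a median fold of 7.62 (5.86 to 9.55), and those without 5.22 (5.00 to 5.52). They include ZNF474 (21.0), whose weaker second region (2.59) has it too, CFAP126 (20.2), AKR1C1 (18.2) and, named after their values were seen, LRRC52 (13.5) and PDE7B (13.5). Of the 6 open genes of the dynein, cilia and flagella family, CFAP126 and CFAP73 (9.55) hold it, and CFAP157 (6.70) is open without it. A match of letters is a description and not evidence of a bound factor.

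**Figure D5:**
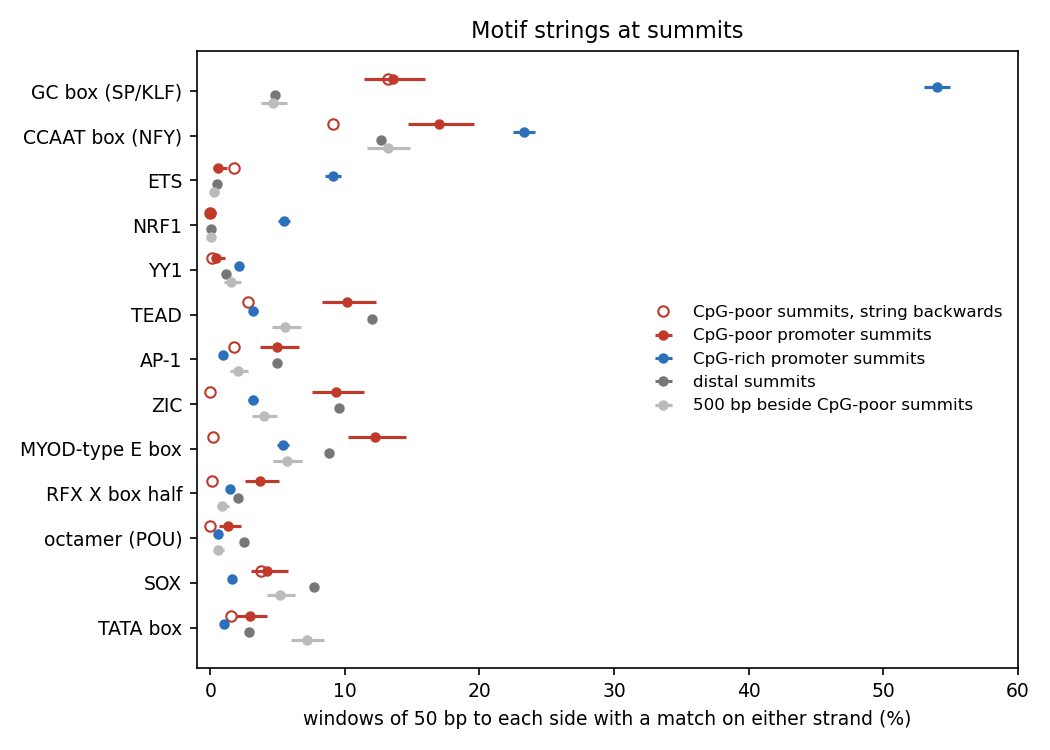
Percent of windows of 50 bp to each side with a match of each motif string on either strand (x axis) at CpG-poor promoter summits (red), CpG-rich promoter summits (blue), distal summits (dark grey) and 500 bp beside the CpG-poor summits (light grey), with 95% exact binomial intervals. Open red circles are CpG-poor summits with the string written backwards, which contains CpG for the X box arm, ZIC, CAGCTG and the octamer, so that the rule on the ratio bears on it; the GC box share is 54.0% at CpG-rich and 13.6% at CpG-poor summits, and the RFX arm is highest at CpG-poor summits.

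The same windows around member summits had a median G+C content of 56.4%, above the flanks (47.5%) and distal summits (49.5%) and below CpG-rich summits (70.3%).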

How the data were processed

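Both samples, rep1 and rep2 of H1 cells, share 1 peak list deposited by the authors, in the build GRCh38 per the submitters' processing notes. The aligner, the peak caller, its settings and what the list's overlap joined are, in the sources used here, not given. Per the file's narrowPeak layout, the deposited score, the fold (a ratio over an undescribed background), the −log10 p and −log10 q and the summit position are the authors' own, and the first equals the −log10 p times 10, truncated and capped at 1000, in all but 12 lines. They served only to describe, rank and filter regions. Library depth was not analysed here.

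Lines that share all coordinates were 1 region, and its value was that of the strongest qualifying summit. Genes and starts came from GENCODE 44 and sequence from hg38. The CpG ratio was computed over 500 bp to each side of the outermost 5′ end. A gene was open with a summit within 500 bp. The 33 motif strings were matched exactly. Copies elsewhere in the genome were counted with BLAST+ 2.17.0 for the 100 bp to each side of each summit (150 bp aligned at 80% identity, or 190 bp at 98% for near-identical), in every 5th CpG-rich and every 50th distal region. Python 3.11.15, pandas 2.3.3, SciPy 1.17.1 and pysam 0.24.0 were used, and the ratio, motif and interval functions were tested on simulated data.

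Genes were named by rule: the 10 strongest members, all CpG-poor core pluripotency genes, up to 3 of highest fold per list, the 2 nearest to each side of each threshold, up to 10 with TATAAA, and the 5 widest and 5 with most summits. Some genes under this rule are not reported here. Genes outside it are said to be chosen after their values were seen. The members, lists and motifs were chosen with earlier results of these data known. The alternatives tried were other ratio and distance limits, starts, windows, strength limits and exclusions.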

Additional observations from a re-analysis of the deposited data

How the results depend on the processing

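The members' median fold was below that of CpG-rich promoters under each alternative run for it, and the sizes of results moved as follows. The share of CpG-poor genes that were open was 16.7% and 19.3% at ratio limits of 0.30 and 0.40, 14.8% and 24.8% at distance limits of 250 and 1000 bp, 16.5% with the strongest summit of a region only, and 19.4% at canonical starts. At canonical starts the median fold was 5.73, its ratio to CpG-rich promoters 0.610, the share of summits within 100 bp 58.0% and the TATAAA share 6.05%. With summits at or above the list's median −log10 p, 559 regions remained, the share open was 11.2%, the median fold 7.55 (0.771 times the CpG-rich one), the width 663 bp and the share within 100 bp 55.5%. The strongest summit of the region gave a fold of 5.71 and a ratio of 0.597, and the limit to strongest summits a width of 538 bp. A ratio over 1000 bp to each side gave 0.604. Other regions near open and closed genes numbered 3 and 2 within 20 kb and 14 and 12 within 100 kb. Closed genes had a median of 5 within 50 kb at canonical starts and at the 1000 bp limit. Dropping the 15 members shared with CpG-richer genes, or, chosen after seeing the data, the 23 with near-identical copies, moved none of these results, and 0 members aligned to mitochondrial DNA. With any annotated start, 12 of 49 lists left their interval.

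No paired analysis was possible because the list has no values per sample, and leaving out a replicate was not possible. The planned share in repeat sequence was not run, since the reference used here carries no repeat marks. Depth is unknown, so a closed promoter is one without a listed region and not one shown to lack accessibility.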

Other observations

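Gene groups were tallied after the members had been seen, and their counts support nothing beyond this list. Of 39 CpG-poor interferon-stimulated genes, 16 were open (41.0%, 25.6% to 57.9%), with 17.9% of all CpG-poor genes. At any annotated start 23 of the 39 were, with 42.2% of all. The regions of IFI16, IFIT2 and AIM2 sit at alternative starts, 9939, 18352 and 111077 bp from the canonical ones. For IFIT3 the canonical start is 690 bp away. The 16 open genes include the antibody receptor TRIM21 (fold 19.8), IFI16 (16.2), the transcription factors BATF2 (11.4) and IRF9 (11.3) and the ligand TNFSF10 (11.1). They also include 4 genes of the IFIT cluster, IFIT2 (11.2), IFIT1 (9.69), IFIT3 (9.01) and IFIT1B (8.43). The interferon regulatory factor string lay within 50 bp of the summit in IFIT1 and IFI6 alone of these 16. Among the APOBEC3 cytidine deaminases, 4 of 6 were open (22.3% to 95.7%; folds 3.10 to 6.85), and APOBEC3C, APOBEC3F and APOBEC3G held the string, which 13 of all 922 members did.

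Of 11 CpG-poor MHC class II genes, 6 were open (54.5%, 23.4% to 83.3%), with 17.9% of all CpG-poor genes. At any annotated start 7 were, with 42.2% of all. HLA-DRB1 had a fold of 18.9, HLA-DMB 12.8, HLA-DRA 10.3, HLA-DPB1 4.06, HLA-DQB1 3.73 and HLA-DRB5 3.62. CCAAT, the string of the Y box in such promoters, lay within 50 bp of the summit in 5 of the 6, and in 17.0% of all members. Of these 5, the region of HLA-DQB1 sits at an alternative start, 1726 bp from the canonical one. The exception, HLA-DRB5, holds the string on the other strand 90 to 86 bp upstream, with its summit 32 bp inside the transcript. Whether any match is the Y box was not tested. The transactivator gene CIITA lacked a region at the outermost start (nearest summit 10887 bp away) but was open at another annotated start. Related HLA genes are similar in sequence, so reads may be shared between them. Of 12 CpG-poor connexin genes, 8 were open (66.7%, 34.9% to 90.1%), with 17.9% of all CpG-poor genes. The same number were open at any annotated start, where the interval includes the 42.2% of all CpG-poor genes. The connexins were led by GJC3 (10.2) and GJE1 (7.24), with GJA1, the connexin 43 gene of stem cell gap junctions, at 3.84.

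Sequence copies were fewer in members than at closed CpG-poor starts, and more than in the sampled CpG-rich regions. The 100 bp to each side of the summit had 10 or more copies in the genome for 12 members (1.30%, 0.674% to 2.26%), against 5.41% of closed CpG-poor starts (4.74% to 6.14%) and 5.25% of distal regions. In the CpG-rich regions the share was 0.254% (0.0825% to 0.592%), below that of members. A near-identical copy existed for 23 members (2.49%, 1.59% to 3.72%) and 6.81% of closed starts. The share was 1.07% in distal (0.709% to 1.56%) and 1.37% in CpG-rich regions (0.906% to 1.99%). Reads from near-identical copies cannot be placed with certainty, and the part of this in the closed calls was not tested. The share of CpG-poor genes open ran from 5.19% to 26.6% over the autosomes, with a median of 18.8%.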
